A study of Homo sapiens with 4 samples.

Results

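MYC, PVT1 and the MAX network were followed as 10 genes through the acetyl-H3 peak lists of H929, an established human multiple myeloma line. The members were the peaks that the authors annotated to one of these gene symbols: MYC, PVT1, MAX, MXD1, MXD3, MXD4, MXI1, MNT, MGA and MLX. The list from cells overexpressing AIMP1 held 10 such peaks among 9780, at 8 of the 10 genes, where 36.1% of all protein-coding genes had an annotated peak. The list from wild-type cells held 3 among 4828, at 2 genes, where 14.5% had one. AIMP1 is a scaffold subunit of the multi-tRNA synthetase complex. Each group had 1 chromatin immunoprecipitation library made with an antibody against histone H3 carrying acetyl groups, which mark open and active regulatory DNA, and no replicate. Both groups were H929 cells, and the labels name no difference other than AIMP1; all were fixed in 1% formaldehyde for 10 minutes. The labels do not say how AIMP1 was introduced, whether the cells were a clone or a pool, or whether the wild-type cells carried an empty vector. Differences between the lists therefore describe 2 libraries, without a p-value.

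MYC is a transcription factor that drives growth and proliferation, and its rearrangement is frequent in myeloma. It binds DNA only as a dimer with MAX, at the E-box motif CACGTG. The MXD proteins, MXI1 and MNT also dimerise with MAX and repress through the same motif by recruiting SIN3 corepressors, while MGA joins MAX to a variant Polycomb complex. MLX is the MAX-like partner of a parallel branch that senses glucose. PVT1 is a long non-coding RNA encoded next to MYC.

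The network's own promoters can carry the motif the network binds. RefSeq windows of 300 bases (250 before to 50 after a gene's start, GRCh38.p14) were available for 8 of the 10 genes, in 13 windows. The sequence CACGTG, which reads the same on both strands, was present in 3 windows, those of MXD4, MNT and MLX. Of all 22156 windows of protein-coding genes, 8.34% held it. These 3 windows are printed in the direction of transcription because each lay whole inside a peak of the overexpression list and in no wild-type peak. Capitals mark CACGTG. The windows lie at chr4:2262060-2262359 on the minus strand for MXD4, chr17:2401011-2401310 on the minus strand for MNT and chr17:42566850-42567149 on the plus strand for MLX.
MXD4: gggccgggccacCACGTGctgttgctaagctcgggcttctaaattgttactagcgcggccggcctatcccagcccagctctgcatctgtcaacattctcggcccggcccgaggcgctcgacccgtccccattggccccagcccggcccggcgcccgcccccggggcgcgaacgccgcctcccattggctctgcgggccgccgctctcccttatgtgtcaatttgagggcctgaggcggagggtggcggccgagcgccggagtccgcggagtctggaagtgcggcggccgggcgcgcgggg
MNT: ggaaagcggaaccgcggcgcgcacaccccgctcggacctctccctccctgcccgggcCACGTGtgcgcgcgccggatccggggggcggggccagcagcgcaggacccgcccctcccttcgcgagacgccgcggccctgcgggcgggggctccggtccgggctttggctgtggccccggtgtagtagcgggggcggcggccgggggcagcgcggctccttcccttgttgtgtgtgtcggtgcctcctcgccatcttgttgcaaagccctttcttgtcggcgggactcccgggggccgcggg
MLX: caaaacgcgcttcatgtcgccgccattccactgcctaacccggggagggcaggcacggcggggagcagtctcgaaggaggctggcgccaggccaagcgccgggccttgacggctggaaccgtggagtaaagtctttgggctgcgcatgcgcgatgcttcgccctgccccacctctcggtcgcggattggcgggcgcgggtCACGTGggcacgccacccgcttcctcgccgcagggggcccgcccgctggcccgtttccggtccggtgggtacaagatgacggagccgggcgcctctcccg
The motif began 238 bases before the RefSeq start of MXD4, 193 before that of MNT and 50 before that of MLX. A match describes letters only and does not show that a factor was bound. The windows had a GC content of 72.3% in MXD4, 76.0% in MNT and 71.0% in MLX, against a median of 62.3% over protein-coding windows. CpG dinucleotides numbered 37, 40 and 37, against a median of 21. The windows of MXD1, MXD3 and MAX lay whole inside overexpression peaks too, as did 1 of 3 windows of MXI1, and none of these held the motif.

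A promoter peak, here any peak that the authors' annotation placed within 3 kb of a transcription start site (TSS), was listed for 8 of the 10 genes in the overexpression library (80.0%, exact 95% binomial interval 44.4 to 97.5). Over all 19974 protein-coding genes the share was 33.9%. With the overexpression list cut to the 4828 peaks of smallest p, the length of the wild-type list, 4 of the 10 genes and 19.9% of protein-coding genes had one. In the wild-type library 1 gene, MNT, had a promoter peak (10.0%, interval 0.253 to 44.5), where the share over all protein-coding genes was 7.4%. MNT was also the only gene of the 10 with promoter peaks in both lists, against 5.39% of protein-coding genes. The wild-type MNT peaks had a p smaller than that of 68.2% and 64.5% of their own list, but the call depended on the cut. The count of member genes in both lists was 0 at p of at most 1e-05. It was also 0 among peaks reaching the pooled median fold of 6.11. Both cuts are stricter than the wild-type medians (p 0.000304, fold 4.47), and shares of all genes at these cuts are not given here. By peaks within 1 kb of a RefSeq start the gene in both lists was MXD3 instead. MYC, MAX, MXD1, MXD3, MXD4, MXI1 and MLX had theirs only in the overexpression list, and PVT1 and MGA had no annotated peak in either. These intervals cover counting error only. A gene without a listed peak had none past the authors' threshold (the largest p in each list was 0.001), and acetylation below that threshold could still have been present.

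**Figure D1:**
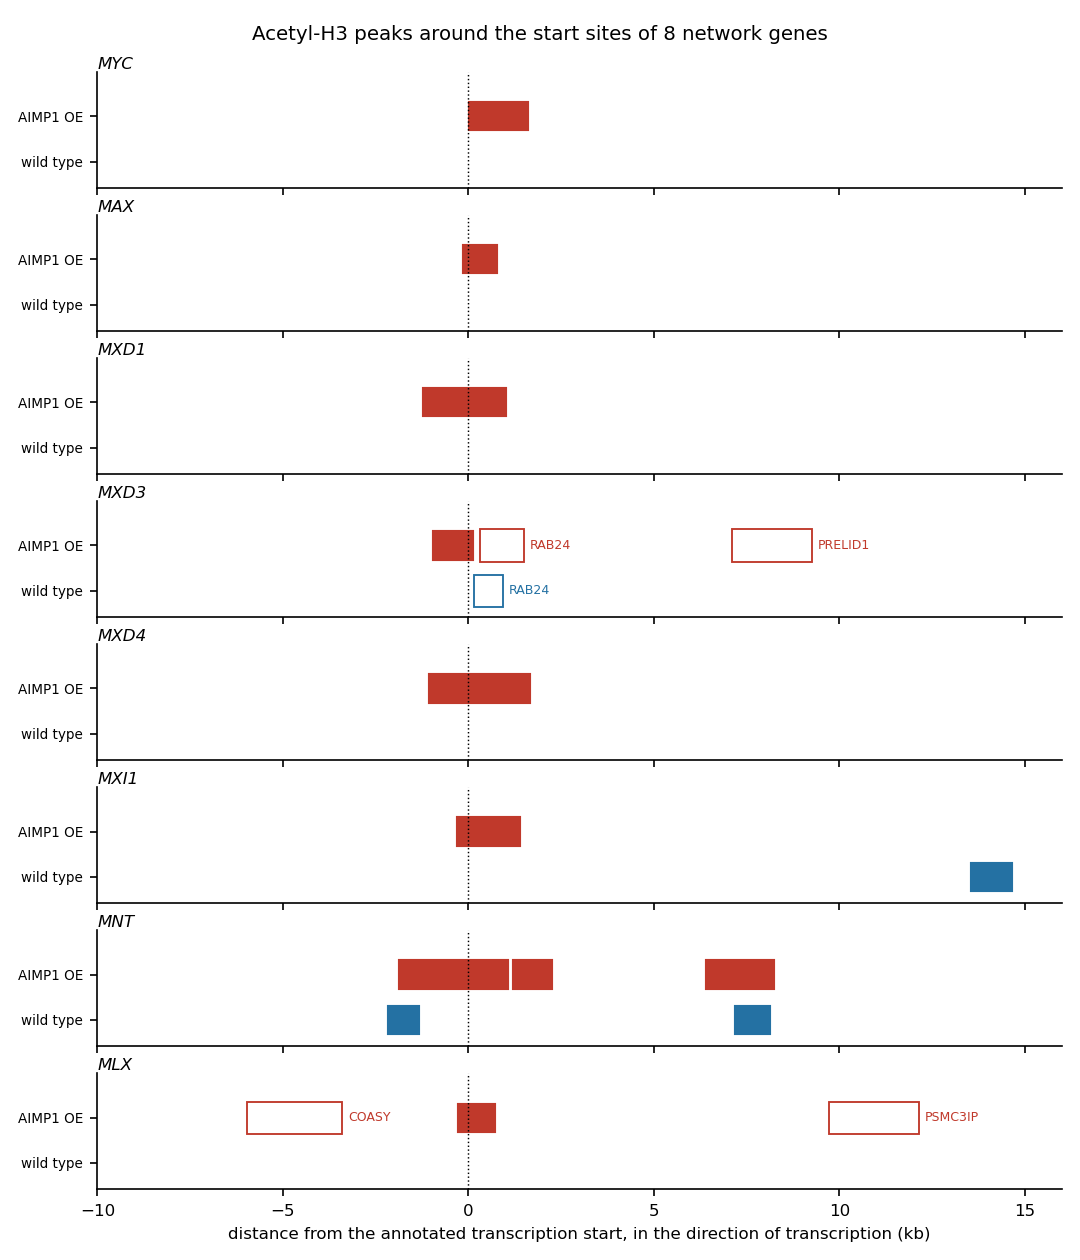
Peaks of both libraries around the start sites of the 8 genes with an annotated peak, on a shared axis of distance from the annotated start in kb. Filled boxes are peaks annotated to the gene and open boxes are peaks annotated to the named neighbour; MNT is drawn from its longest annotated transcript, and 2 of its 3 overexpression peaks lie 32 bp apart. Zero is the start that the annotation assigned to an overexpression promoter peak of each gene, so every panel has an overexpression peak near zero by construction. At MYC and MXD3 this start lies 786 and 443 bp after the RefSeq start. Filled wild-type boxes occur only at MXI1 and MNT.

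The MYC peak of the overexpression library lay on chromosome 8 from 127736194 to 127737889, with a width of 1696 bp, a fold enrichment of 7.86 (p 5.92e-10). Both values are the authors' own and were computed per library, so they place a peak among its list and give no direction between libraries. The fold was higher than that of 56.4% of the overexpression peaks, the p smaller than that of 62.3% and the width larger than that of 53.7%. MYC was thus a middle-ranking peak of its library on all 3 measures. The peak did not reach the RefSeq start of MYC: it began 760 bp downstream of it, and its summit lay 1920 bp downstream. The authors called it a promoter peak through a shorter transcript whose start lies 786 bp into the gene.

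The MYC peak stood far from other peaks. The nearest other overexpression peak ended 2.3 Mb before it, at TRIB1, a pseudokinase gene (fold 6.81), and the next one after it began 12.77 Mb further on, at CHRAC1 (fold 6.29). Of the 9780 overexpression peaks 28 were farther from their nearest neighbour, and the median distance was 31.4 kb. No peak of either library overlapped the 306.7 kb that RefSeq gives to PVT1, and the nearest one, at MYC, lay 56.6 kb away. Of 26 names of genes and microRNAs around MYC and PVT1 that were looked up, only TRIB1 had an annotated peak. Among these names were CCAT1, CASC8, MIR1204 to MIR1208, GSDMC and CCDC26. In the overexpression list 36.1% of protein-coding genes had one. Many of the names are non-coding RNAs, which that share does not cover, so the count cannot be read against it. Of these names 3 were not current RefSeq symbols: FAM49B and FAM84B are older names of CYRIB and LRATD2, which were looked up too, and TMEM75 had no match.

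Wild-type peaks were missing from the whole end of chromosome 8, so the lack of a wild-type peak at MYC and PVT1 was not particular to these genes. The last wild-type peak on that chromosome, an exonic one annotated to DPY19L4 (94713708 to 94714346, fold 4.0, p 0.000724), ended 33.02 Mb before the MYC peak. Up to there the wild-type list held 90 peaks and the overexpression list 171. Beyond it the wild-type list held 0 and the overexpression list 47, of which 45 were at promoters. This stretch of 50.3 Mb ranked 2nd by length and 3rd by number of overexpression peaks among 2510 stretches that held an overexpression peak but no wild-type peak; the longest, 87.8 Mb, was on chromosome X. Copy number and read depth were not measured here, and their part in this was not tested.

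**Figure D2:**
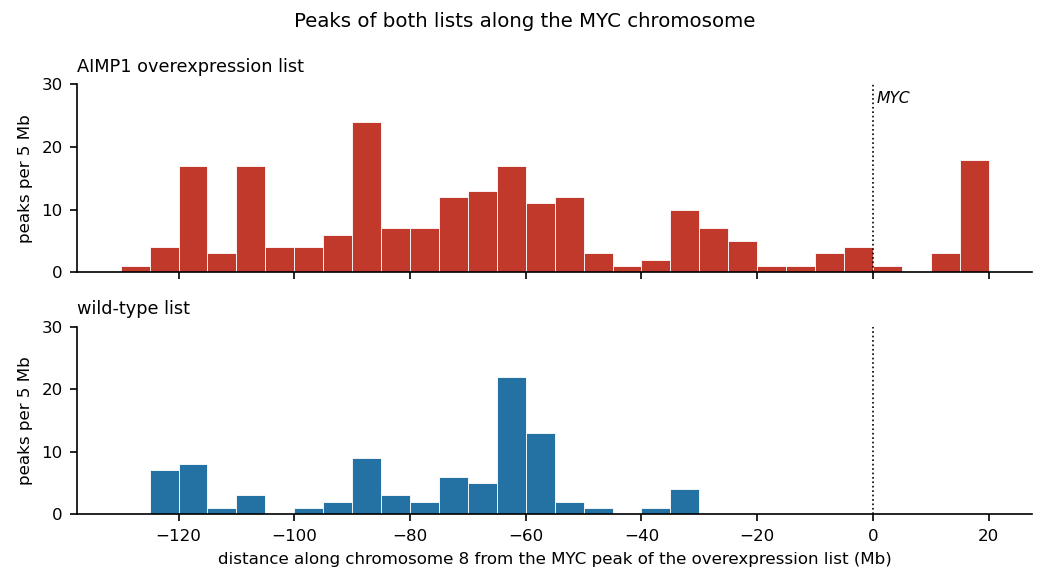
Number of peaks per 5 Mb along chromosome 8 in each library, by distance in Mb from the MYC peak of the overexpression list (dotted line). Wild-type bars stop 33.02 Mb before MYC, while 47 overexpression peaks, MYC among them, lie beyond that point.

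MAX, the obligate partner of MYC, had 1 overexpression peak at its promoter (chromosome 14, 65101559 to 65102599). Its fold of 8.38 was higher than that of 63.5% of the list, but its p of 0.000294 was smaller than that of only 12.7%. It was the narrowest of the 10 network peaks, at 1041 bp, and 12.8% of the list was narrower. MAX thus ranked in the middle by fold and low by p and width. The nearest wild-type peak lay 687.3 kb away, at FUT8. The peak held both RefSeq windows of MAX, with a GC content of 63.3% and 68.7%.

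Among the MXD repressors, MXD4 had the strongest peak of the network. It lay on chromosome 4 from 2260588 to 2263403, was 2816 bp wide and reached a fold of 11.53 (p 9.57e-24), the highest fold and the smallest p of the 10. Its fold exceeded that of 90.0% of the overexpression list, and its p was smaller than that of 92.1%. The summit lay 482 bp upstream of the annotated TSS and 667 bp upstream of the RefSeq start, outside the printed window. MXD1, first described as MAD1, followed by p: its peak on chromosome 2 (69913773 to 69916119, 2347 bp) had a fold of 8.25 (p 2.25e-12), and its summit too lay upstream, by 555 bp. Neither gene had a wild-type peak nearby. The nearest lay 74.5 kb from the MXD4 peak and 67.9 kb from the MXD1 peak.

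MXD3 shared its surroundings with peaks annotated to RAB24, a gene for a RAS-like GTPase. In both libraries the authors' annotation gave RAB24 a promoter peak that overlapped the RefSeq span of MXD3. The MXD3 peak of the overexpression library (chromosome 5, 177312126 to 177313311, 1186 bp) had a fold of 6.81 (p 5.74e-06). A separate overexpression peak annotated to RAB24 (177310818 to 177311988) began further into MXD3, with a fold of 5.24 (p 0.000228). The wild-type library had 1 peak here, also annotated to RAB24 (177311376 to 177312165, 790 bp, fold 5.14, p 0.000114). It overlapped the MXD3 peak by 40 bp, which was 3.37% of that peak and 5.06% of its own width. By gene symbol MXD3 therefore had no wild-type peak, although a wild-type peak reached its promoter peak.

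MXI1, the MXD family member once named MXD2, had peaks in both libraries at different places. The overexpression peak covered the annotated start (chromosome 10, 110207237 to 110209044, 1808 bp, fold 6.04, p 3.1e-07), with its summit 194 bp downstream. The wild-type peak was intronic (110221089 to 110222323, 1235 bp, fold 3.14, p 0.000738) and began 12045 bp after the end of the overexpression peak. It was among the weakest of its list: 4.35% of wild-type peaks had a lower fold, and 17.6% had a larger p. Neither peak covered the other 2 RefSeq start windows of MXI1.

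MNT, a repressor that opposes MYC at shared targets, was the gene with the most peaks, 3 with AIMP1 overexpression and 2 in wild-type cells. The first overexpression peak lay within the gene at the start of a short transcript (chromosome 17, 2392840 to 2394774, 1935 bp, fold 8.77, p 1.26e-09). The second (2398812 to 2399960, 1149 bp) had a fold of 7.31 (p 3.1e-05), and the third began 32 bp after it (2399992 to 2403056). The third covered the annotated start of the longest transcript and the printed window. It was the widest of the network, at 3065 bp, and wider than 91.0% of the list, yet its fold of 4.11 was the lowest of the 10, with 1.81% of the list below it, and its p was 0.000344.

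Both wild-type MNT peaks overlapped an overexpression MNT peak. The first (2392929 to 2393980, 1052 bp, fold 4.19, p 0.000127) lay whole inside the intragenic overexpression peak and covered 54.4% of it. The second (2402404 to 2403346, 943 bp, fold 4.94, p 0.000157) lay 1286 bp upstream of the annotated start and shared 653 bp with the third overexpression peak. That was 69.2% of the wild-type and 21.3% of the overexpression peak, and 290 bp of the wild-type peak lay outside. The overexpression peak was 1.84 times as wide in the first pair and 3.25 times in the second. Over the whole lists overexpression peaks were wider too, with a median of 1621 bp against 828.5 bp, so a greater width was not particular to MNT. Within its list the second wild-type peak ranked above 70.5% of peaks by fold, and the first above 38.1%.

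MGA, the largest protein of the network, had no peak in its 148.7 kb span in either library. None of its 3 RefSeq start windows touched a peak, although their GC content of 61.0% to 66.3% and their 21 to 33 CpG dinucleotides were not low beside the medians of 62.3% and 21 over protein-coding windows. The nearest overexpression peak lay 4.2 kb beyond the gene's end, at the promoter of MAPKBP1 (fold 4.78, p 0.00024), and the nearest wild-type peak 100.7 kb away. MLX had the weakest overexpression peak of the network by p (chromosome 17, 42566720 to 42567830, 1111 bp, fold 6.29, p 0.000668), and 5.01% of the list had a larger p. It stood between peaks of its neighbours COASY (fold 8.49, p 5.19e-15) and PSMC3IP (fold 5.33, p 4.01e-07), both with a smaller p, though the fold of PSMC3IP was lower than that of MLX. The nearest wild-type peak lay 42.0 kb away, at ATP6V0A1.

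**Figure D3:**
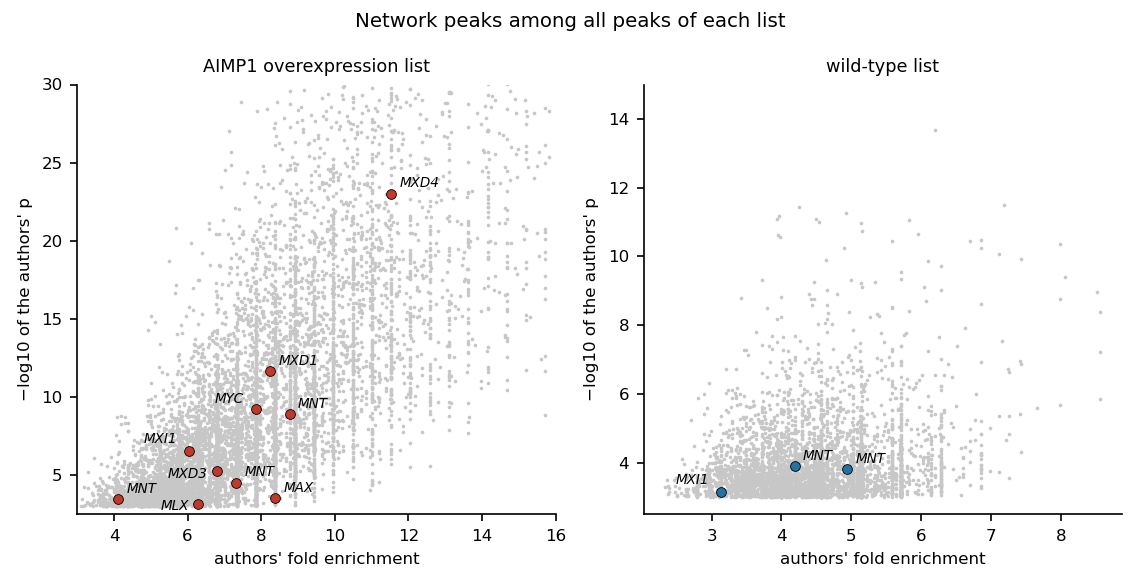
Authors' fold enrichment (x axis) against −log10 of the authors' p (y axis) for all peaks (grey) and the network peaks (coloured) of each library, on different scales; the overexpression panel is limited to folds below 16 and −log10 p below 30. MXD4 stands highest among the network peaks, MAX, MLX and the third MNT peak lie near the lower edge, and the wild-type MXI1 peak lies near the lower left corner of its list.

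Over the 10 overexpression peaks, the network was near the middle of its library. Their median fold was 7.58 (4.11 to 11.53), against 7.34 over the whole list, and 5 of 10 exceeded that median. Their median width was 1752 bp (1041 to 3065), against 1621 bp, and 6 were wider than the median. By p the network stood lower, with a median of 3.03e-06 against 8.44e-08, and 4 of the 10 had a p below the list's median. The 3 wild-type peaks had a median fold of 4.19 against 4.47 and a median width of 1052 bp against 828.5 bp. All 10 overexpression peaks were at promoters, where 84.9% of that list lay, and 2 of the 3 wild-type peaks were, where 36.0% of that list lay.

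Of the 10 overexpression peaks 3 overlapped a wild-type peak (exact interval 6.67% to 65.2%), at MNT and MXD3, where 10.9% of all overexpression peaks did. Of the 3 wild-type peaks 2 overlapped an overexpression peak, both at MNT, where 22.2% of all wild-type peaks did. Peak density around the genes differed widely. Within 5 Mb of MYC lay 5 overexpression and 0 wild-type peaks, within 5 Mb of MLX 154 and 54, and within 5 Mb of MNT 93 and 23. Around MXI1 wild-type peaks were the more numerous, 39 against 26 overexpression peaks. Over the whole genome the lists held 2.03 overexpression peaks per wild-type peak.

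Of 4 remaining genes of the network 2 had an overexpression promoter peak, beside 33.9% of all protein-coding genes. MLXIP, the glucose-responsive partner of MLX also known as MondoA, had an overexpression promoter peak with a fold of 7.14 (p 4.91e-07). MLXIPL, its liver and fat counterpart ChREBP, had one with a fold of 4.05 (p 0.000938). The MYC paralogues MYCN and MYCL had no annotated peak in either library, and no gene of these 4 had a wild-type peak.

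Of 18 partner and corepressor genes, 13 had an overexpression promoter peak (72.2%, interval 46.5 to 90.3), beside 33.9% of all protein-coding genes. Of the same 18 genes 3 had a wild-type one (16.7%, interval 3.58 to 41.4), beside 7.4%. KAT5, the TIP60 acetyltransferase recruited by MYC, had the highest overexpression fold (14.57), followed by its scaffold TRRAP (11.46) and, at the same fold of 11.0, by the elongation factor cyclin gene CCNT1 and the corepressor gene NCOR1. SIN3A, the corepressor scaffold of the MXD proteins and MNT, had overlapping promoter peaks with a fold of 8.68 in overexpressing cells and of 4.53 in wild-type cells. KAT5 also had overlapping peaks (wild-type fold 4.14), and CDK9, the elongation kinase, had a wild-type promoter peak (fold 5.08) that overlapped an overexpression peak annotated to MIR3960.

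Genes of MYC turnover had overexpression promoter peaks at 6 of 12 (exact interval 21.1% to 78.9%). The share over all protein-coding genes, 33.9%, lay inside that interval. The deubiquitinase gene OTUB1 (13.16), the kinase gene GSK3B (12.58) and the ubiquitin ligase gene HUWE1 (9.43) were highest by fold. A wild-type promoter peak was listed for 1 of the 12 (8.33%, interval 0.211 to 38.5), beside 7.4% of all protein-coding genes. That gene was FBXW7, the ligase subunit that marks phosphorylated MYC for degradation. Its wild-type peak had a fold of 4.42 (p 0.000667), and it had no overexpression promoter peak. Of 30 textbook MYC target genes 23 had an overexpression promoter peak (76.7%, interval 57.7 to 90.1), beside 33.9% of all genes. A wild-type one was listed for 4 (13.3%, interval 3.76 to 30.7), beside 7.4%, and all 4 were in both lists. PTMA, which encodes prothymosin alpha, had the highest overexpression fold (18.86, width 6761 bp), and its wild-type promoter peak (fold 4.47) lay elsewhere. E2F2 (12.24) followed, and then, tied at a fold of 11.56, the pyrimidine synthesis gene CAD (2363 bp, p 1.27e-15) and the RAN exchange factor gene RCC1 (6533 bp, p 1.83e-92). In NOLC1, PRDX3 and NCL the peaks of both libraries overlapped, with wild-type folds of 4.97, 4.47 and 3.99. The background share of 33.9% covers active and silent genes alike, and no expression was measured, so these counts say nothing of MYC activity.

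**Figure D4:**
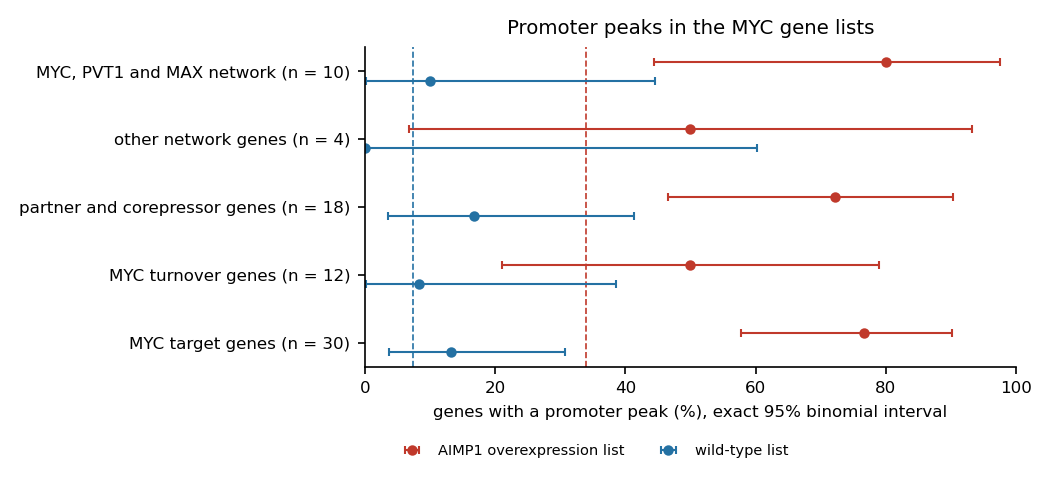
Share of genes with a promoter peak in each library for the 10 network genes and 4 further gene lists, in percent; points are shares, bars exact 95% binomial intervals, and dashed lines the shares over all protein-coding genes (33.9% and 7.4%). Overexpression shares are highest for the network itself (80.0%) and the MYC targets (76.7%), and no wild-type share exceeds 16.7%. The intervals cover counting error only. The genes were chosen with earlier results of these data known, so the intervals are no test against the dashed lines.

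The labelled cell type was checked against marker genes. Of 8 plasma cell markers 7 had an overexpression promoter peak (33.9% of all protein-coding genes had one), with PRDM1 (17.29), XBP1 (16.51) and JCHAIN (15.87) highest by fold, and CD38 had no annotated peak. MZB1 alone had a wild-type promoter peak (fold 5.22), near the background of 7.4%, and 5 of the 8 had some wild-type peak, beside 14.5% of protein-coding genes. None of 11 B cell, T cell, monocyte and erythroid markers had a promoter peak in either library, and 1 of them, CD3E, had wild-type peaks elsewhere.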

How the data were processed

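Of 4 samples, the acetyl-H3 libraries came with peak lists and were used, and the 2 input libraries were not analysed here. Cutadapt, Trimmomatic, FastQC and Bowtie2 are named in the submitters' processing notes. For the peak caller and its threshold, the build and the role of the inputs, the sources used here give nothing. The deposited fold is the authors' ratio over an undescribed background, and the deposited p-value was used unchanged. Read depth is unknown. Of the gene identifiers, 8088 of 8100 and 3489 of 3497 were found in RefSeq GRCh38.p14, and their positions matched in 99.9% and 99.8% of cases, so the files were read as GRCh38. Overlap meant at least 1 shared bp, a step tested on simulated peaks. Gaps are differences between end and start coordinates. With 1 library per group no test between groups was made. All peaks annotated to the 10 genes are described. From each further list the 3 genes with the highest promoter fold per library were named, with ties; NCL and the overlap partners were named after their values were seen. The members and lists were chosen with earlier results of these data known. Alternatives changed the overlap, the promoter definition and the peaks kept. Software was Python 3.11.15 with numpy 2.4.6, pandas 2.3.3, matplotlib 3.10.9 and scipy 1.17.1.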

Additional observations from a re-analysis of the deposited data

How the results depend on the processing

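No paired analysis was possible because there was a single library per group. Of 39 alternative values 21 stayed within 1.5 times the reported one. Some of these could not move, since equal length left the wild-type list uncut and its own counts unchanged. Allowing peaks within 1 kb of each other could only add overlaps. The tally is therefore no measure of stability. At p of at most 1e-05, 6 overexpression and 0 wild-type member peaks were left, so genes with a wild-type promoter peak, genes with one in both lists and overlaps in either direction were all 0; MAX and MLX lost their overexpression peak, and the 4 further lists together had 5 wild-type genes in place of 8. With only peaks whose fold reached the pooled median (6.11), wild-type member peaks, genes with a wild-type promoter peak, genes in both lists and overlaps in either direction were also 0. With lists of equal length (4828 peaks), 4 overexpression member peaks at 4 genes (MYC, MXD1, MXD4 and MNT) and 1 overlap in each direction were left. Counting any annotated peak gave 2 genes in the wild-type list and 2 in both, MXI1 and MNT. Counting any peak within 1 kb of a RefSeq start again gave 1 wild-type gene, but it was MXD3, through the peak annotated to RAB24, and not MNT. The further-list alternatives were chosen after seeing the data. The wild-type counts rest on 3 peaks, and the unknown depth of the libraries limits what a missing peak can show.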
